A study of Mus musculus with 16 samples.

Results

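The 38 genes described here take up, activate and oxidise fatty acids. They were chosen by name from a count table of mouse stomach, in which all 38 were found among 24964 gene symbols. All 38 passed the filter on low counts, which kept 15385 genes. The choice was made by function with earlier results of the same table known. Slc27a2 was singled out because it was low in 1 of the groups, WT-A, so its values there are a description and carry no test. RNA was sequenced from 16 biopsies, 4 in each of 4 groups, each a 4 mm piece of gastric corpus from the lesser curvature, and all mice were females aged 8 weeks. WT-S and WT-A were wild-type C57BL/6 mice. TTP-S and TTP-A were congenic C57BL/6 mice of the genotype TTPΔARE, in which Zfp36, the gene of the mRNA-destabilising protein tristetraprolin (TTP), has lost the AU-rich element (ARE) of its mRNA. The treatment label of both A groups is gastric inflammation brought on by adrenalectomy (ADX), the removal of the adrenal glands. The label of both S groups is spasmolytic polypeptide-expressing metaplasia (SPEM), mucous cells that arise when corpus glands are injured. What S stands for, and whether S mice were operated on, is not stated in the labels. Nothing in them says whether mice shared a litter, cage or day, so the p-values measure the spread between these libraries.

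Fatty acids enter cells in part through transport proteins of the Slc27 family and are activated to acyl-CoA by the Acsl synthetases. Cpt1a hands the chain to carnitine at the outer mitochondrial membrane, the rate-setting step, and Slc25a20 and Cpt2 bring it into the matrix. There the acyl-CoA dehydrogenases, the trifunctional protein (Hadha and Hadhb), Echs1, Hadh and Acaa2 shorten it in repeated rounds, while Eci1, Eci2 and Decr1 deal with double bonds. Electrons leave through the electron transfer flavoprotein (Etfa, Etfb) and its dehydrogenase Etfdh. Peroxisomes shorten very long, branched and bile acid side chains with Acox2, Ehhadh, Hsd17b4 and Acaa1a. The nuclear receptor PPARα (Ppara) and the coactivator PGC-1α (Ppargc1a) switch on many of these genes, and Angptl4 is a classic PPAR target. The acid-secreting parietal cells of the corpus are packed with mitochondria, and the adrenal glands make glucocorticoids, hormones that act on lipid metabolism.

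Total counts ran from 17453930 to 25849472 per library. Zfp36 was at 55.1 to 65.8 CPM (read counts scaled to library size) across WT-S, 63.2 to 88.6 in WT-A, 114.8 to 129.5 in TTP-S and 110.5 to 131 in TTP-A, so every TTPΔARE library was above every WT library. The libraries WT-A 3 and WT-A 4 stood apart: their deviations from the other libraries followed transcript GC content (Spearman rho 0.72 and 0.74 across 11493 genes), while the next in size was WT-S 2 at -0.30. Each test was therefore also made in the 14 libraries without this pair. The defining genes of the acid-secreting, enzyme-secreting and mucous cells of the corpus were abundant in every group: summed parietal markers were at 19220 CPM or more and summed chief cell markers at 47130 CPM or more. Markers of SPEM and mucous neck cells ran against the label of the S groups, which names SPEM, in all S libraries but WT-S 1. Their summed level was 1228 to 3581 CPM across WT-S and 3051 to 3438 CPM in WT-A, and 1288 to 1657 CPM in TTP-S and 1801 to 4443 CPM in TTP-A.

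Promoter sequence is shown for 3 members: Slc27a2, the member set apart by the choice; Acadm, the textbook PPARα target among those lower in WT-A; and Hadha, which shares its promoter region with Hadhb. The windows run from 250 bases before to 50 bases after the start of the gene in RefSeq (GRCm38.p6), 5′ to 3′ on the strand of the gene: chr2:126552774-126553073 on the plus strand, chr3:153944594-153944893 on the minus strand and chr5:30154931-30155230 on the minus strand. Capitals mark a match to the nuclear receptor core AGGTCA, which here lies on the opposite strand and so reads TGACCT.
Slc27a2: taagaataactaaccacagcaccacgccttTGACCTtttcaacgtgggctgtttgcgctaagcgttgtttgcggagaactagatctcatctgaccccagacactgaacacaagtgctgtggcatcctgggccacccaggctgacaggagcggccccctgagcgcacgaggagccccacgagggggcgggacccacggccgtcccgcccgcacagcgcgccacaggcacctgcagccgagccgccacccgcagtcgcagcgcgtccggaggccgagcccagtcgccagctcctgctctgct
Acadm: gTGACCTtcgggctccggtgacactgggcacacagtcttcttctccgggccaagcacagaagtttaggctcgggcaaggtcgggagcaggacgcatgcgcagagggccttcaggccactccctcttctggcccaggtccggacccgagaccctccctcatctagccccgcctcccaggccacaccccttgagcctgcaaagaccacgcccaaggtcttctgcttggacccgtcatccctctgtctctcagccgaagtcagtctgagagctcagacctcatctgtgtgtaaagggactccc
Hadha: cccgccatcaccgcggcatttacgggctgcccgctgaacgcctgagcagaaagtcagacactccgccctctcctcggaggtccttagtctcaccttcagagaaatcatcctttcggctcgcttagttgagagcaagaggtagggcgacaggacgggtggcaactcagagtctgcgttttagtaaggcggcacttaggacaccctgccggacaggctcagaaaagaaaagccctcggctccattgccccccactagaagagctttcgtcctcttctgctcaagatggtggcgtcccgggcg
The core stands far upstream in both windows that hold it, at bases 31 to 36 for Slc27a2 and at bases 2 to 7 for Acadm. Hadha and Hadhb point away from each other with 272 bases between their starts. RefSeq windows were found for 33 members (37 windows). The PPAR element AGGTCANAGGTCA was in 0 of these 37, against 0.0396% of 32851 windows of all genes. The oestrogen-related receptor element TNAAGGTCA (1.28% of all windows) and the glucocorticoid receptor element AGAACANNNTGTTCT (0.00913%) were also in 0. The core AGGTCA, which is part of the PPAR and oestrogen-related receptor elements, was in 5 windows (Acadm, Acadvl, Cpt1a, Echs1 and Slc27a2), against 16.3% of all windows. The core TGTTCT of the glucocorticoid receptor element was in 3 (Acot1, Acsl5 and Hadh), against 19% of all windows. Both strands were searched. These are matches of letters in a short window and nothing was drawn from their presence or absence.

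In the WT-S group the list covered a wide range of levels. Per kilobase of exon, the WT-S mean was highest for Ucp2, an inner-membrane carrier (381 CPM per kb), followed by Acadl (137), Etfb (93.3), Etfa (89.5) and Hadh (87.8). Mitochondrial enzymes filled the places from Acadl down to Acadm (65.7 CPM per kb), apart from the peroxisomal thiolase Acaa1a (66.2). Cpt1a stood at 57.3 CPM per kb, Ppargc1a at 8.04 and Ppara at 4.78. At the bottom were Slc27a2 (2.07 CPM per kb), Acot2 (1.32), Acaa1b (0.881), Acot1 (0.366) and Angptl4 (0.285). The last 3 had between 4 and 91 counts in a library, so counting error limits them more than the rest.

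Most of the list was lower in condition A than in condition S in both genotypes, by small amounts. In TTPΔARE mice 35 of the 38 members had a fitted level lower under A than under S, with a median log2 difference of -0.19, where 50.3% of all genes tested were lower with a median of -0.0010. In WT mice 29 of 38 were lower in WT-A than in WT-S, with a median of -0.11 against 0.0094 over all genes. In condition S 34 of 38 were higher in TTPΔARE than in WT mice, with a median of 0.10 against -0.00052 over all genes; without WT-S 1 this was 29 of 38 and 0.056. In condition A the genotypes split evenly, 19 higher and 19 lower in TTP-A (median 0.014), while the 14 libraries gave 27 higher and 11 lower (median 0.072). Comparisons that share a group share its libraries: TTP-S enters both the first and the third of these, and WT-S the second and the third. The counts and medians against WT-A include Slc27a2, lower in WT-A than in WT-S and higher in TTP-A than in WT-A. These directions were fixed by the choice of that gene.

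Few of these differences passed the test of single genes (edgeR, adjusted p under 0.05 over all genes, referred to as called; unless another test or setting is named, a call is that of edgeR in the 16 libraries). Slc27a2 is left out of the counts of calls against WT-A that follow, since its level there is why it was picked. Between WT-A and WT-S 10 of the other members were called, 9 lower and 1 higher, where 8.99% of all genes were called lower and 9.8% higher. They were Acsl1, Acsl3, Acadl, Acadm, Hadh, Decr1, Etfa, Etfdh and Ppara lower and Eci2 higher. Between TTP-A and TTP-S 3 were called lower (Acsl1, Acox2 and Acaa1a) and 0 higher, where 1.35% of all genes were called lower. The 14 libraries gave 9 lower there, against 3.13% of all genes, as Acsl3, Cpt1a, Cpt2, Slc25a20, Etfb and Angptl4 joined them. Both TTPΔARE groups are whole in that fit, so only the shared estimate of the spread differs. Voom with sample weights called 26 members there, 24 lower and 2 higher, against 7.44% and 7.81% of all genes. Between TTP-S and WT-S 0 members were called by edgeR (0.0325% of all genes), 4 had an unadjusted p under 0.05 (1153 of all 15385 genes), and the DESeq2 and voom tests called 1 each (0.65% and 1.14% of all genes). Between TTP-A and WT-A 2 were called higher (Etfdh and Ppargc1a), against 2.87% of all genes. In the 14 libraries 2 others were (Acsl1 and Echs1), against 1.27% of all genes.

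Leaving out a library of the groups compared moved these counts together with the share of all genes that was called. Between TTP-A and TTP-S 0 members were called without TTP-A 1, TTP-A 3, TTP-A 4, TTP-S 2, TTP-S 3 or TTP-S 4, and the share of all genes fell from 2.9% to between 0.39% (without TTP-A 1) and 1.25% (without TTP-A 3). Without TTP-S 1 the count was 1 (1.37% of all genes) and without TTP-A 2 it was 7 (6.14%). In these 8 fits the log2 difference ran from -1.31 to -0.93 for Acox2, from -0.38 to -0.31 for Acaa1a and from -0.36 to -0.29 for Acsl1. Between WT-A and WT-S, again beside Slc27a2, the count was 4 without WT-S 2 or WT-S 4 and 5 without WT-S 3 or WT-A 3, where the share of all genes fell from 18.8% to between 8.14% and 11.8%. It was between 8 and 14 without each of the other libraries (14.6% to 32.4% of all genes) and 9 in the 14 libraries (10.5% of all genes). In a fit of WT-A and WT-S alone 2 members kept their call (Etfdh and Eci2) and 3.98% of all genes were called. Acsl1, Acsl3, Acadl, Acadm, Hadh, Decr1, Etfa and Ppara lost theirs there, at log2 differences such as -0.39 for Acsl1, -0.29 for Acadm and -0.31 for Hadh. With offsets on GC content (16.5% of all genes called) Acsl1, Acsl3, Acadl, Decr1, Etfa and Etfdh lost their calls while Acaa1a, Acaa2 and Crat gained one. Between TTP-A and WT-A the count beside Slc27a2 was 0 without TTP-A 3 (0.65% of all genes) or WT-A 3 (0.585%) and 7 without WT-A 1 (20.8%). It was 0 when this pair of groups was fitted alone, where 0.0065% of all genes were called. Without a library of the other groups, Acsl1, Acox2, Acsl3 and Acadl lost a call in at least 1 such fit, and Angptl4, Cpt1a, Cpt2, Slc25a20, Etfb and Ppargc1a gained one.

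In both comparisons of TTP-S many members were apart between groups without passing the test. All 4 TTP-A libraries were below all 4 TTP-S libraries in 18 of the 38 members, 3 of them called, and above them in 1, Acsl4, against 6.77% and 6.94% of all genes. With no scaling factor for library composition the count was 9 below and 1 above, against 3.36% and 12.7% of all genes. Without TTP-A 2 it was 28 below and 2 above (12.7% and 12.6% of all genes). TTP-S was wholly above WT-S in 8 members (Acsl1, Acsl3, Acadvl, Eci1, Decr1, Etfb, Acot2 and Angptl4), none of them called, and below in 0, against 3.5% and 3.24% of all genes. That count was 13 above and 0 below without WT-S 2 (6.73% and 7.12% of all genes). Against WT-A few members were apart, and Slc27a2 is again left out. WT-A was wholly below WT-S in 3 members and above in 1, against 8.48% and 9.2% of all genes, and all 4 of these were called. Without WT-S 1 there were 13 below and 1 above (13.2% and 14.5% of all genes), without WT-A 4 there were 8 and 1 (11.3% and 11.9%), without WT-A 1 there were 5 and 3 (14.3% and 13.9%), and the 14 libraries gave 14 and 2 (17.1% and 15.9%). With no scaling factor the balance turned, to 2 below and 4 above, against 2.46% and 21.4% of all genes. TTP-A was wholly above WT-A in 2 members, both called, and below in 1, against 5.99% and 6.22% of all genes. The counts became 11 and 2 in the 14 libraries (15.2% and 13.2% of all genes), 5 and 4 without WT-A 1 (11.3% and 10.5%), 5 and 1 without WT-A 4 (8.57% and 8.68%), and 2 and 4 without TTP-A 2 (7.94% and 8.89%). Here too the balance turned with no scaling factor, to 0 above and 3 below, against 2.51% and 14.2% of all genes.

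**Figure D1:**
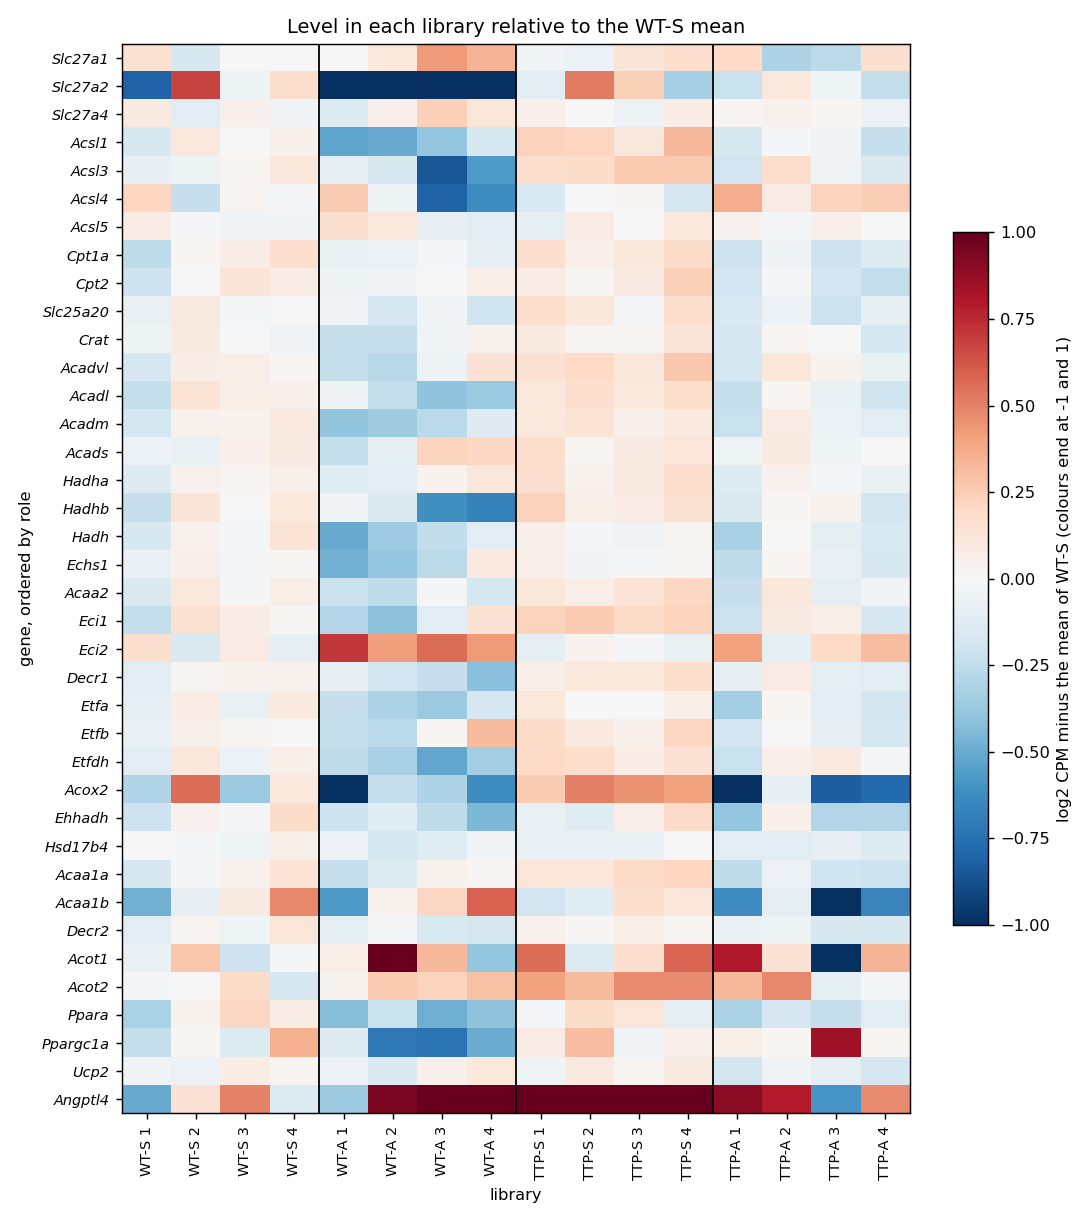
Log2 level of each of the 38 members (rows, by role) in each of the 16 libraries (columns, by group) as the difference from the mean of WT-S, in colours that end at -1 and 1. The TTP-S columns are mostly above the WT-S mean and the WT-A and TTP-A columns mostly below it, with Slc27a2 lowest in WT-A, WT-S 1 lower than the other WT-S libraries and TTP-A 2 higher than the other TTP-A libraries.

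The median member shows how single libraries sat. Relative to the WT-S mean, the median log2 level of the 38 members was -0.12 in WT-S 1 and 0.041, 0.021 and 0.057 in the other WT-S libraries. It was -0.18, -0.16, -0.092 and -0.11 in WT-A 1 to 4. In TTP-S it was 0.11, 0.071, 0.088 and 0.16, above every WT-S library. In TTP-A it was -0.18, 0.018, -0.082 and -0.13. WT-A did not overlap WT-S apart from WT-S 1, and TTP-A was below TTP-S in all 4 libraries. WT-S 1 thus had levels like those of the A groups, with 33 of 38 members below the WT-S mean, and TTP-A 2 had levels between its own group and TTP-S. The scaling of libraries bears on these medians. Without it the median log2 difference of all genes was 0.15 for WT-A minus WT-S and 0.071 for TTP-A minus TTP-S, and that of the members was 0.036 and -0.12. Relative to all genes the members were then lower in A in both genotypes as before.

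Markers of the cell types that a corpus biopsy holds moved between the same groups. In a biopsy fewer cells of a type and less RNA per cell cannot be told apart. Between WT-A and WT-S 9 of 10 tested parietal markers were lower, 5 of them called (median log2 -0.35), and their summed level was 24040 to 27380 CPM across WT-S and 19220 to 28200 CPM in WT-A. Between TTP-A and TTP-S 9 of 10 were lower with 0 called (median -0.091), and the sums were 24870 to 26150 CPM in TTP-S and 21670 to 25360 CPM in TTP-A. Surface mucous markers were lower in 4 of 4 in both genotypes, with 0 called in WT mice (median -0.33) and 1 in TTPΔARE mice (-0.54). Their sums ran from 52680 to 60550 CPM across WT-S, 36430 to 51640 in WT-A, 55850 to 60080 in TTP-S and 29830 to 52910 in TTP-A, where TTP-A 2 was the highest. Chief cell markers were lower in WT-A in 5 of 5 with 2 called (-0.28; -0.86 in the 14 libraries). Their sums were lowest within WT-S in WT-S 1 (75420 CPM, the others 122500 to 149700), the library whose members were also low, and ran from 47130 to 100400 CPM in WT-A, 123800 to 131200 in TTP-S and 91260 to 140100 in TTP-A. SPEM and mucous neck markers went the other way. Of these 7 of 8 were higher in WT-A than in WT-S with 4 called (median log2 0.75), and 6 of 8 in TTP-A relative to TTP-S with 3 called (0.48). Their sum was highest within WT-S in WT-S 1 (3581 CPM, the others 1228 to 1831), where members were low, and lowest within TTP-A in TTP-A 2 (1801 CPM, the others 2087 to 4443), where members were high. Smooth muscle markers were higher in WT-A in 5 of 5 with 4 called (median 0.38; sums 5740 to 6554 CPM across WT-S and 6770 to 8280 in WT-A), and in TTP-A in 3 of 5 with 0 called (0.043). Of the fat cell markers 7 of 8 were lower in TTP-A relative to TTP-S, with 3 called (median -0.74), and higher in TTP-S than in WT-S in 8 of 8 with 0 called (0.49). Their sums were 206 to 253 CPM across WT-S, 179 to 316 in WT-A, 266 to 417 in TTP-S and 155 to 224 in TTP-A, so TTP-S was above every WT-S and TTP-A library. In WT mice the fat cell markers went the other way in the 16 libraries, with 7 of 8 higher in WT-A and 0 called (0.047; -0.46 in the 14 libraries). Of the brown fat markers Elovl3 had at most 3 counts in any library, and Cidea, the one tested, was called higher in WT-A (0.96, adjusted p = 0.0254; brown fat sums 1.48 to 3.42 CPM across WT-S and 3.26 to 5.67 in WT-A). Squamous forestomach markers were higher in WT-A in 7 of 7 with 1 called (2.74; sums that overlapped, from 1.48 to 250 CPM across WT-S, where WT-S 3 was far above the rest, and 45.0 to 964 in WT-A), striated muscle markers in 3 of 3 with 2 called (0.92) and macrophage markers in 3 of 4 with 2 called (0.32). In TTP-A relative to TTP-S squamous markers were lower in 6 of 7 with 0 called (-0.84), striated muscle markers higher in 3 of 3 with 1 called (0.57) and macrophage markers higher in 4 of 4 with 0 called (0.34). Between TTP-A and WT-A parietal markers were higher in 9 of 10 with 2 called (0.23) and chief cell markers in 5 of 5 with 2 called (0.78), while smooth muscle markers were lower in 5 of 5 with 3 called (-0.45) and SPEM and mucous neck markers in 7 of 8 with 2 called (-0.38). Marker sums and member medians did not always order the libraries alike. Chief cell markers were highest within TTP-A in TTP-A 3 (140100 CPM, 116500 in TTP-A 2). Surface mucous markers were lowest within WT-S in WT-S 3 (52680 CPM, 53610 in WT-S 1). Within WT-A the parietal, chief cell and surface mucous sums were all highest in WT-A 4 (28200, 100400 and 51640 CPM). Its member median was -0.11, and WT-A 3 had the highest of the group (-0.092). The part of these cell types in the members' differences was not tested.

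**Figure D2:**
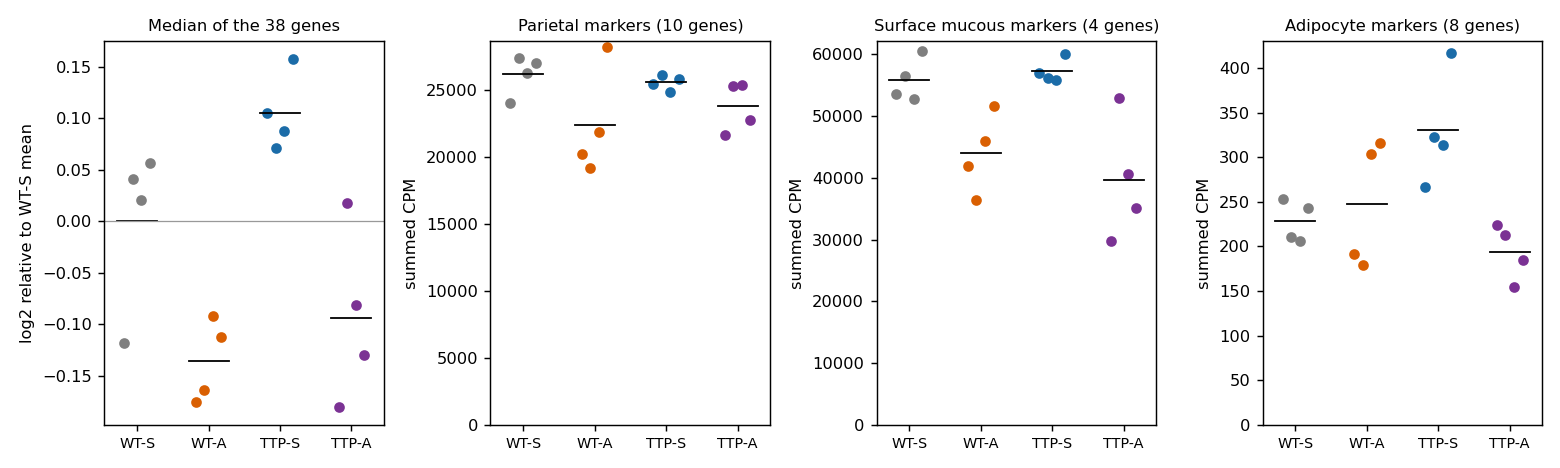
One panel shows the median log2 level of the 38 members relative to the WT-S mean, and the others the summed level of parietal, surface mucous and fat cell markers (CPM, axes from 0); points are libraries by group and lines are group means. The 4 TTP-S libraries have the highest member medians (0.071 to 0.16), and TTP-A 2, the TTP-A library with the highest median (0.018), has the highest surface mucous sum of its group (52910 CPM).

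Slc27a2 encodes FATP2, a transporter that also activates very long and bile acid chains (chr2:126553024-126588243, plus strand, mm10). It was low in this tissue, with 27 to 214 counts in a library. Its level was 3.19, 9.08, 5.46 and 6.40 CPM across WT-S 1 to 4 and 1.26, 0.931, 1.91 and 2.35 CPM in WT-A 1 to 4. In TTP-S it was 5.23, 8.15, 6.67 and 4.47 CPM and in TTP-A 4.82, 6.09, 5.47 and 4.77 CPM. The 4 WT-A libraries lay below the other 12, which overlapped one another. This is the pattern for which the gene was chosen, and the fitted values describe it: 3.79-fold lower in WT-A than in WT-S (log2 -1.92, SE 0.31) and 3.3-fold higher in TTP-A than in WT-A (log2 1.72, SE 0.31). In the 14 libraries, without the pair set apart by GC content, these were -2.46 and 2.26. The contrasts that the choice did not use showed no call. TTP-A minus TTP-S was -0.22 (SE 0.28, edgeR adjusted p = 0.819) and TTP-S minus WT-S was 0.02 (SE 0.28, adjusted p = 0.9995).

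Of the other transport and activation genes, Acsl1 changed in both genotypes. It encodes the main long-chain acyl-CoA synthetase of fat-burning tissues (chr8:46471037-46536051, plus strand). Acsl1 was at 179, 216, 200 and 208 CPM across WT-S and 139, 141, 153 and 179 CPM in WT-A. It was at 235, 232, 216 and 251 CPM in TTP-S and 180, 198, 196 and 170 CPM in TTP-A. The ranges of WT-S and WT-A met only at WT-S 1 and WT-A 4, and those of TTP-S and TTP-A were apart. Acsl1 fell by 0.39 on the log2 scale in WT-A (SE 0.08, edgeR adjusted p = 0.00722; 14 libraries -0.52, adjusted p = 0.00289), a call that held without any 1 library. With offsets on GC content it was -0.22 (adjusted p = 0.197). In TTP-A it was lower by a log2 of -0.33 (SE 0.08, adjusted p = 0.0483; 14 libraries 0.0116), and this call was lost without each of the TTPΔARE libraries other than TTP-A 2 (highest adjusted p = 0.167, without TTP-A 1), in the fits that left out WT-S 3, WT-S 4 or WT-A 3, with offsets on GC content (-0.31, adjusted p = 0.133) and with no filter on low counts (-0.33, adjusted p = 0.0522). TTP-S was above WT-S by 0.22 without a call (adjusted p = 0.52). Acsl3, another long-chain synthetase, was at 95.2 to 109 CPM across WT-S and at 94.1, 90.4, 55.7 and 68.1 CPM in WT-A, where the lowest values belong to the pair set apart by GC content. Its call in WT-A (log2 -0.39, adjusted p = 0.0456) became -0.13 (adjusted p = 0.357) without that pair. Acsl3 was 114 to 121 CPM in TTP-S and 88.5 to 114 CPM in TTP-A. Slc27a1, Slc27a4 and Acsl5 were called in no contrast, with log2 differences between -0.09 and 0.22 for A against S. Acsl4, which prefers arachidonate, was the member higher in every TTP-A library (35.4 to 43.0 CPM) than in any TTP-S library (29.7 to 33.6 CPM), without a call by edgeR (0.30, adjusted p = 0.439). It was called by voom, with offsets on GC content and with only these groups fitted.

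All 4 members of the carnitine shuttle had fitted levels lower under A than under S in both genotypes, and edgeR called none in the 16 libraries in any contrast. Between TTP-A and TTP-S DESeq2, voom and edgeR with offsets on GC content called Cpt1a, Cpt2 and Slc25a20, and Cpt1a was also called with DESeq2 size factors and with the filter of 1 CPM in 4 libraries. Cpt1a, the rate-setting enzyme (chr19:3322326-3385735, plus strand), was at 206, 249, 258 and 276 CPM across WT-S and 233, 236, 242 and 230 CPM in WT-A. In TTP-S it was at 276, 255, 266 and 279 CPM and in TTP-A at 213, 238, 213 and 224 CPM. WT-A lay inside the range of WT-S, whereas TTP-A lay wholly below TTP-S. TTP-A minus TTP-S was -0.28 for Cpt1a (SE 0.07, edgeR adjusted p = 0.0502; 14 libraries 0.0352), at the edge of the threshold, and WT-A minus WT-S was -0.07 (adjusted p = 0.482). Slc25a20, the carnitine-acylcarnitine exchanger, was at 23.9, 26.8, 24.9 and 25.3 CPM across WT-S and 24.6, 22.4, 24.7 and 21.9 CPM in WT-A. It was at 28.5, 27.3, 24.9 and 28.5 CPM in TTP-S and 22.7, 24.2, 21.7 and 23.7 CPM in TTP-A, again apart (log2 -0.24, SE 0.06, adjusted p = 0.0549; 14 libraries 0.0288). Cpt2, which returns the chain to CoA in the matrix, was 68.7 to 79.7 CPM in TTP-S and 57.4 to 66.8 CPM in TTP-A (-0.27, adjusted p = 0.0586; 14 libraries 0.0376). The difference between the genotypes in the response to A was tested and not called for any of them (Cpt1a -0.20, adjusted p = 0.35; Cpt2 -0.26, adjusted p = 0.266; Slc25a20 -0.13, adjusted p = 0.471; Crat -0.04, adjusted p = 0.874). Crat, which moves short chains, was called in WT-A in the 14 libraries (-0.23, adjusted p = 0.0369) and not in the 16 (-0.11, adjusted p = 0.27), other than by voom and with offsets on GC content.

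Among the matrix dehydrogenases that open each round, the enzymes for long and medium chains were lower in WT-A. Acadm, for medium chains, was at 119, 138, 138 and 144 CPM across WT-S, 102, 105, 111 and 123 CPM in WT-A, 145, 148, 139 and 144 CPM in TTP-S, and 115, 142, 129 and 124 CPM in TTP-A. Its WT-A libraries were below those of WT-S apart from WT-S 1, and TTP-A met TTP-S only at TTP-A 2. Acadm fell by 0.29 on the log2 scale in WT-A (SE 0.07, edgeR adjusted p = 0.0179; 14 libraries -0.37, adjusted p = 0.0114). The call was lost in 3 fits that each left out a library (WT-S 2, WT-S 3 and WT-S 4), with a highest adjusted p of 0.0618. In TTP-A it was -0.18 (adjusted p = 0.253). Acadl, for long chains, was called in WT-A (-0.27, adjusted p = 0.0437) but not in the 14 libraries (-0.15, adjusted p = 0.338). Acadvl, for very long chains, and Acads, for short ones, were called by edgeR in no contrast; voom called Acadvl lower in A in both genotypes.

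The later steps of the round split between members. Hadh, which makes the keto group, was at 140, 161, 154 and 172 CPM across WT-S, 110, 122, 132 and 144 CPM in WT-A, 162, 154, 153 and 160 CPM in TTP-S, and 125, 156, 147 and 141 CPM in TTP-A. The ranges of WT-S and WT-A met at WT-S 1 and WT-A 4. Hadh fell by 0.30 on the log2 scale in WT-A (SE 0.08, edgeR adjusted p = 0.0231; 14 libraries -0.43, adjusted p = 0.00838), and the call was lost when WT-S 2 or WT-S 4 was left out, with a highest adjusted p of 0.077. Echs1, the hydratase of the short chains, was at 109, 119, 114 and 116 CPM across WT-S and 82.3, 87.6, 95 and 123 CPM in WT-A, with WT-A 4 above every WT-S library. It was at 119, 112, 113 and 116 CPM in TTP-S and 96.3, 116, 109 and 103 CPM in TTP-A. Echs1 was not called in WT-A in the 16 libraries (-0.24, adjusted p = 0.0845), and was called in the 14 libraries (-0.43, adjusted p = 0.00259), without WT-A 4 and by voom. Eci1, an isomerase for double bonds, was likewise called in WT-A in the 14 libraries (-0.35, adjusted p = 0.0388) and not in the 16 (-0.16, adjusted p = 0.298).

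Eci2, the other isomerase, was the member called higher. It was at 35.8, 29.0, 33.9 and 30.0 CPM across WT-S and 52.3, 42.9, 47.2 and 43.1 CPM in WT-A (chr13:34977748-35027115, minus strand). In TTP-S it was at 30.2, 32.8, 31.6 and 30.4 CPM and in TTP-A at 42.3, 29.9, 36.8 and 39.7 CPM. All WT-A libraries were above all WT-S and all TTP-A libraries, and TTP-A 2 was below all TTP-S libraries while the other 3 were above them. Eci2 rose 1.44-fold in WT-A (log2 0.53, SE 0.10, edgeR adjusted p = 0.00383; 14 libraries 0.57, adjusted p = 0.00959), and it was called under each of the alternatives run and without any 1 library. TTP-A minus TTP-S was 0.25 (adjusted p = 0.21), which passed without TTP-A 2 (0.34) and by voom. TTP-A minus WT-A was -0.32 for Eci2 (edgeR adjusted p = 0.0654). It was called there by DESeq2, with offsets on GC content and without WT-A 2. The close copy Eci3, a peroxisomal isomerase that is its neighbour on the same chromosome, was also higher in WT-A (1.24 ± 0.976 CPM across WT-S, 4.00 ± 1.85 CPM in WT-A; log2 1.72, SE 0.47, adjusted p = 0.0225; SD, n = 4). It rose in TTP-A as well (0.273 ± 0.117 CPM in TTP-S, 1.83 ± 0.787 CPM in TTP-A; log2 2.74, SE 0.59, adjusted p = 0.0246). Reads shared by such copies could have been counted for either, so the split between Eci2 and Eci3 is uncertain.

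Decr1, the dienoyl-CoA reductase, was at 52.4, 57.7, 57.9 and 58.2 CPM across WT-S, 53.3, 49.4, 48.1 and 42.3 CPM in WT-A, 59.0, 60.7, 60.9 and 63.8 CPM in TTP-S, and 53.4, 59.8, 53.1 and 52.3 CPM in TTP-A. Apart from WT-S 1, every WT-S library was above every WT-A library. Its call in WT-A (log2 -0.23, SE 0.07, edgeR adjusted p = 0.0303) was lost in the 14 libraries (-0.14, adjusted p = 0.182) and without WT-A 3, WT-A 4, WT-S 2, WT-S 3 or WT-S 4, and with offsets on GC content it was -0.06 (adjusted p = 0.467). Hadha and Hadhb, the α and β subunits of the trifunctional protein, whose promoter region is shown above, were called by edgeR in no contrast. Voom called the pair lower under A in TTPΔARE mice. Hadhb was called in WT-A by DESeq2 and without WT-A 1, WT-A 2 or WT-S 1, and between TTP-A and WT-A without WT-A 1. Hadha was at 248 to 282 CPM across WT-S and 248, 249, 277 and 292 CPM in WT-A. Hadhb was at 77.3 to 98.9 CPM across WT-S and 88.9, 81.8, 59.3 and 56.7 CPM in WT-A. WT-A 3 and WT-A 4 had the highest Hadha and the lowest Hadhb of their group. The longest transcript of Hadha is 51.3% GC and that of Hadhb 39.1%. Without this pair the log2 difference between WT-A and WT-S was -0.12 for Hadha and -0.09 for Hadhb, against -0.02 and -0.34 with it. In TTP-A both were below all TTP-S libraries (-0.16, adjusted p = 0.218, and -0.20, adjusted p = 0.493).

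The electron carriers that take over from the dehydrogenases were lower in WT-A in their dehydrogenase and α subunit. Etfdh was at 122, 143, 127 and 137 CPM across WT-S, 110, 105, 92.2 and 104 CPM in WT-A, 152, 149, 139 and 146 CPM in TTP-S, and 114, 137, 141 and 130 CPM in TTP-A (chr3:79603788-79628767, minus strand). WT-A was below every other library. Etfdh fell by 0.36 on the log2 scale in WT-A (SE 0.07, edgeR adjusted p = 0.00562; 14 libraries -0.29, adjusted p = 0.0345), a call kept without any 1 library but not with offsets on GC content (-0.17, adjusted p = 0.136). It was 1.27-fold higher in TTP-A than in WT-A (log2 0.34, SE 0.07, adjusted p = 0.0232; 14 libraries 0.27, adjusted p = 0.0882), and this was lost without TTP-A 2, TTP-A 3, TTP-A 4 or WT-A 3, with offsets on GC content (0.16, adjusted p = 0.202) and with only these groups fitted (0.34, adjusted p = 0.135). Etfa was at 116, 131, 118 and 133 CPM across WT-S and 106, 99.8, 96.1 and 111 CPM in WT-A, which were apart. It was at 134, 125, 125 and 130 CPM in TTP-S and 98.1, 126, 115 and 110 CPM in TTP-A. Etfa fell by 0.27 on the log2 scale in WT-A (SE 0.07, adjusted p = 0.0205; 14 libraries -0.27, adjusted p = 0.0504), and the call was lost when WT-A 3, WT-S 2 or WT-S 4 was left out and with offsets on GC content (-0.12, adjusted p = 0.324). Etfb was at 79.0, 86.1, 84.9 and 83.1 CPM across WT-S and 70.4, 68.9, 84.4 and 104 CPM in WT-A, with WT-A 4 above all WT-S libraries. It was at 95.3, 88.8, 86.2 and 96.0 CPM in TTP-S and 72.9, 82.9, 78.5 and 73.5 CPM in TTP-A, with TTP-S above every WT-S and every TTP-A library. Neither difference of Etfb was called by edgeR in the 16 libraries (WT -0.03, adjusted p = 0.875; TTPΔARE -0.25, adjusted p = 0.22), and both were in the 14 (-0.25, adjusted p = 0.0211, and -0.25, adjusted p = 0.0129). Voom called both (-0.23 and -0.28), and edgeR with offsets on GC content called the second.

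**Figure D3:**
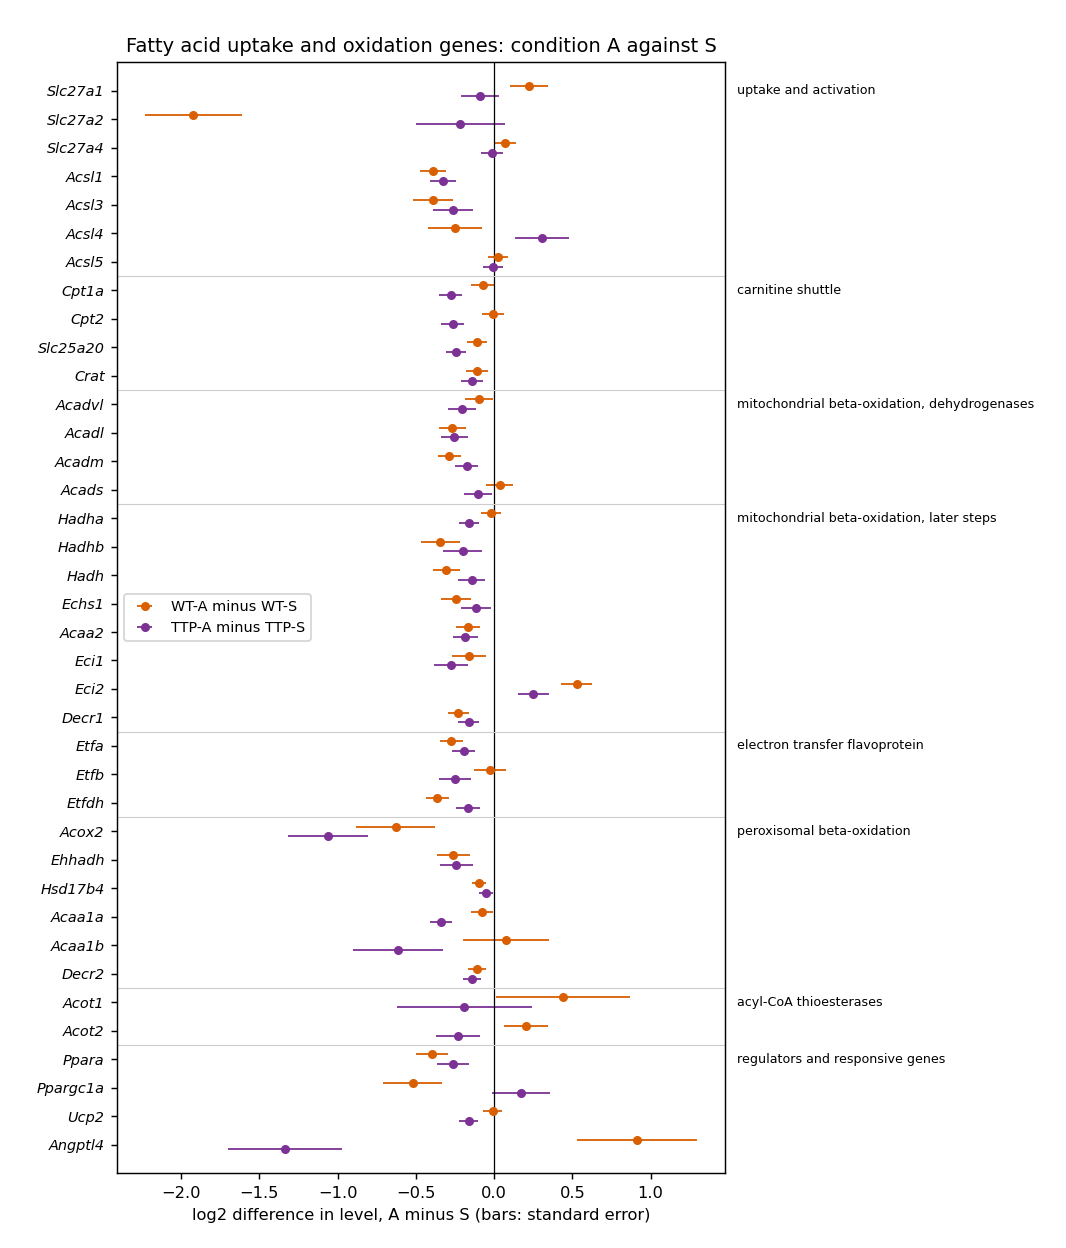
Fitted log2 difference between condition A and condition S for each of the 38 members by role, in WT mice (orange) and in TTPΔARE mice (purple), with bars of 1 standard error. Most points lie left of 0 in both genotypes, with Slc27a2 at -1.92 in WT mice, Acox2 at -1.06 and Angptl4 at -1.34 in TTPΔARE mice, and Eci2 at 0.53 in WT mice.

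The peroxisomal branch held both of the other calls in TTPΔARE mice. Acox2 is the oxidase that opens the shortening of branched fatty acids and bile acid side chains (chr14:8225511-8259019, minus strand). It was at 9.91, 18, 9.42 and 13.2 CPM across WT-S and 4.66, 10.3, 9.83 and 7.87 CPM in WT-A, which overlapped. In TTP-S it was at 14.6, 17.3, 16.7 and 16.1 CPM and in TTP-A at 5.59, 11.5, 6.87 and 7.08 CPM, which were apart. Acox2 fell 2.09-fold in TTP-A (log2 -1.06, SE 0.26, edgeR adjusted p = 0.0384; 14 libraries 0.0284), and the call was lost without WT-S 4 and without each of the TTPΔARE libraries other than TTP-A 2 (highest adjusted p = 0.154, without TTP-A 1). WT-A minus WT-S was -0.63 (adjusted p = 0.0886), and the difference between the genotypes was not called (-0.43, adjusted p = 0.555). Acaa1a, a thiolase (chr9:119341028-119350296, plus strand), was at 104, 115, 120 and 128 CPM across WT-S, 99.4, 106, 119 and 118 CPM in WT-A, 127, 126, 133 and 135 CPM in TTP-S, and 97.7, 112, 102 and 101 CPM in TTP-A. TTP-S was above every TTP-A and every WT-A library. Acaa1a fell by 0.34 on the log2 scale in TTP-A (SE 0.07, adjusted p = 0.0227; 14 libraries 0.007). This call was lost without TTP-A 1, TTP-A 3, TTP-A 4, TTP-S 2, TTP-S 3 or TTP-S 4 (highest adjusted p = 0.095). WT-A minus WT-S was -0.08 for Acaa1a (adjusted p = 0.434), and it was called there with offsets on GC content (-0.21, adjusted p = 0.0197). Its copy Acaa1b was at 0.624 to 2.22 CPM in all libraries and called by edgeR in no contrast, and reads of the pair may have been split between them. Ehhadh, Hsd17b4 and Decr2 were lower in A in both genotypes by log2 differences of -0.05 to -0.26 without a call by edgeR. Voom called Ehhadh and Decr2 in TTP-A and Hsd17b4 in WT-A, and edgeR called Ehhadh in WT-A without WT-S 1. The acyl-CoA thioesterases Acot1 and Acot2, neighbouring copies of each other, were at 0.192 to 1.97 and 2.56 to 4.06 CPM, with no call. Acot2 was wholly above WT-S in TTP-S (3.62 to 4.05 against 2.56 to 3.30 CPM; log2 0.42, adjusted p = 0.419).

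**Figure D4:**
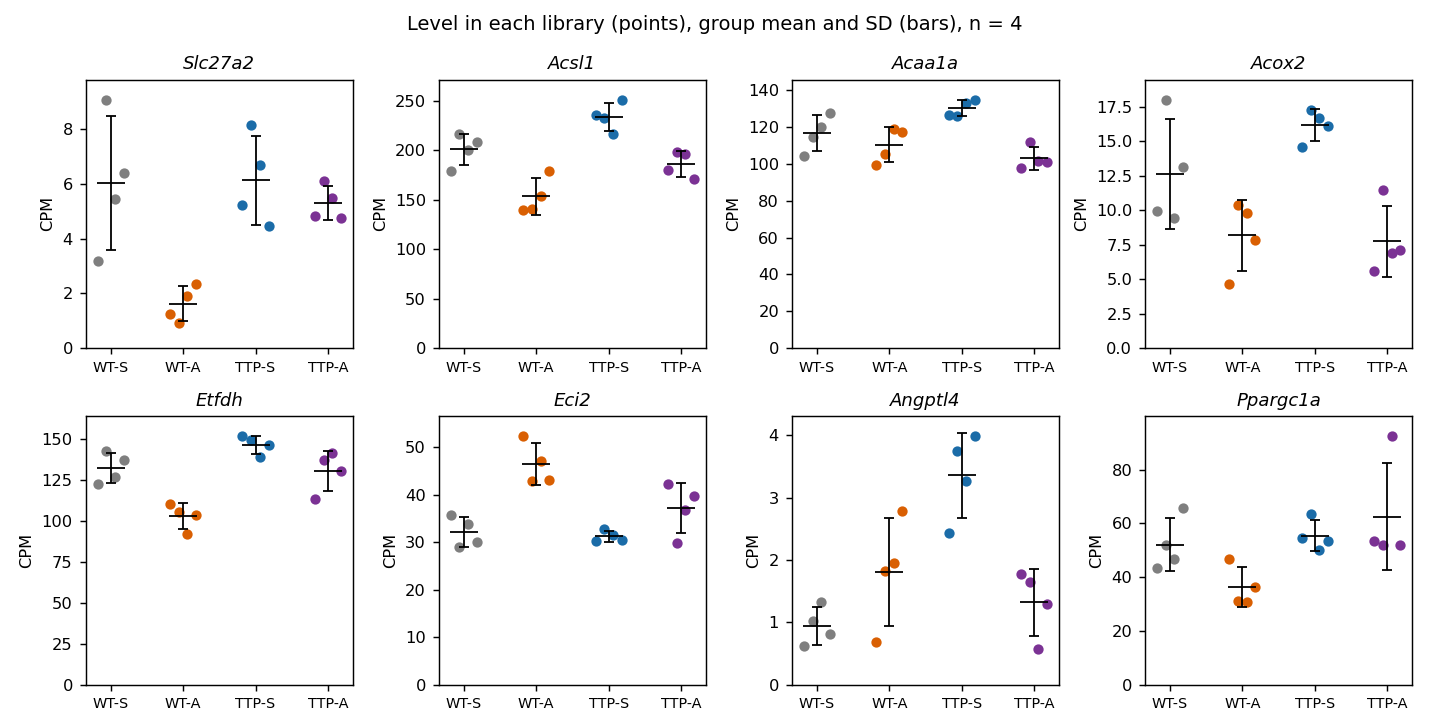
Level of 8 members in each library (points, CPM, linear axes from 0) by group, with the group mean and SD over 4 libraries as bars. Slc27a2 is lowest in the 4 WT-A libraries, Acox2 is lower in all TTP-A than in all TTP-S libraries, Eci2 is highest in WT-A, and Angptl4 has its highest mean in TTP-S.

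Of the regulators, Ppara was called in WT-A and Ppargc1a between the genotypes in condition A. Ppara (chr15:85734910-85806851, plus strand) was at 13.4, 17.2, 19.4 and 17.7 CPM across WT-S, 12.4, 14.4, 11.9 and 12.7 CPM in WT-A, 16.6, 19.0, 18.2 and 15.7 CPM in TTP-S, and 13.4, 14.9, 14.2 and 15.6 CPM in TTP-A. Apart from WT-S 1 the S groups were above the A group of their genotype. Ppara fell by 0.40 on the log2 scale in WT-A (SE 0.10, edgeR adjusted p = 0.0167), without a call in the 14 libraries (-0.33, adjusted p = 0.0969), without WT-A 3 or without WT-S 3. In TTP-A it was -0.26 (adjusted p = 0.202). Ppargc1a (chr5:51454249-52115853, minus strand) was at 43.5, 52.0, 46.7 and 65.8 CPM across WT-S, 46.8, 31.2, 30.7 and 36.4 CPM in WT-A, 54.4, 63.5, 50.2 and 53.3 CPM in TTP-S, and 53.5, 52.0, 92.3 and 52.0 CPM in TTP-A. WT-A was below all TTP-A libraries and TTP-A 3 was far above the rest of its group. Ppargc1a was 1.72-fold higher in TTP-A than in WT-A (log2 0.78, SE 0.19, adjusted p = 0.032), but not called in the 14 libraries (0.68, adjusted p = 0.136) or without TTP-A 3, WT-A 3 or WT-A 4. Nor was it called with offsets on GC content (0.50, adjusted p = 0.125) or with only these groups fitted (0.78, adjusted p = 0.15). WT-A minus WT-S was -0.52 (adjusted p = 0.064), not called by edgeR and called by DESeq2 and voom, and it was -0.22 with offsets on GC content (adjusted p = 0.452). TTP-A minus TTP-S was 0.17 (adjusted p = 0.76) and turned to -0.078 without TTP-A 3. Ucp2, the most abundant member, was at 1334 to 1632 CPM in all libraries and called by edgeR in no contrast.

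Angptl4, a secreted inhibitor of lipoprotein lipase, had its highest mean level in TTP-S (chr17:33774900-33781575, minus strand). It was at 0.616, 1.02, 1.32 and 0.819 CPM across WT-S and 0.686, 1.83, 1.95 and 2.78 CPM in WT-A. In TTP-S it was at 2.43, 3.75, 3.26 and 3.98 CPM and in TTP-A at 1.77, 1.64, 0.576 and 1.30 CPM. TTP-S was above every WT-S and TTP-A library. WT-A overlapped WT-S, TTP-A and also TTP-S, as WT-A 4 was above TTP-S 1. The difference between TTP-S and WT-S was 3.5-fold (log2 1.81, SE 0.38, edgeR adjusted p = 0.119; 14 libraries 0.0466), the one member called there in the 14 libraries, where 0.305% of all genes were called higher. TTP-A minus TTP-S was -1.34 (SE 0.37, adjusted p = 0.0603; 14 libraries 0.0317) and WT-A minus WT-S was 0.91 (SE 0.39, adjusted p = 0.101). The latter was 0.40 in the 14 libraries (adjusted p = 0.6) and was called without WT-A 1 (1.19). The difference between the genotypes in the response to A was -2.25 for Angptl4 (log2, SE 0.53, adjusted p = 0.119; unadjusted p = 0.000653), the largest of the list in the 16 libraries, and -1.74 in the 14, where Slc27a2 had a larger one (2.24). Fat cells express Angptl4, and the fat cell marker sums given above were also highest in TTP-S; their part was not tested.

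The difference between the genotypes in the response to A was called for no member. By edgeR 0 of the 38 were called for this interaction (0.0585% of all genes, and 0 in the 14 libraries, against 0.286%). An unadjusted p under 0.05 was found for 7 (2344 of all 15385 genes). Slc27a2 is among the 38 and among these 7, and its level in WT-A is why it was picked, so its value here carries no test. Beside Slc27a2, DESeq2 called Angptl4 (1.7% of all genes) and voom called 0 (1.11%), and edgeR called Angptl4 without WT-A 1 (1.5%). The median interaction of the members was -0.034 against 0.0019 over all genes. A call in one genotype and not in the other, as for Etfdh or Acox2, is therefore not shown to be a difference between them.

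Further genes, most of them of lipid metabolism, were counted from a list of 77, of which 68 were tested. The list holds uptake and oxidation genes and also genes of ketone bodies, lipid droplets and, with 7 genes, fatty acid synthesis, which runs opposite to oxidation. Some of the oxidation genes, Acadsb, Hibch, Mut and Pccb among them, do not act on fatty acids alone. The median log2 difference of the 68 was -0.089 for WT-A minus WT-S and -0.15 for TTP-A minus TTP-S. Between WT-A and WT-S 18 were called lower and 4 higher, against the 8.99% and 9.8% of all genes given above. The 8 with the smallest p were lower: Scp2, a lipid carrier with a peroxisomal thiolase (log2 -0.44, SE 0.06, edgeR adjusted p = 0.000603), Mut, a mutase at the end of odd chain oxidation (-0.70), Cd36, the fatty acid translocase (-0.86), Acadsb (-0.70), Oxct1, which uses ketone bodies (-0.51), lipoprotein lipase Lpl (-0.79), Phyh, which starts branched chain oxidation (-0.45), and Pccb (-0.30). All 8 were also called lower in the 14 libraries. Cd36 was at 124, 205, 165 and 174 CPM across WT-S, 109, 99.0, 74.9 and 84.8 CPM in WT-A, 192, 194, 172 and 215 CPM in TTP-S, and 136, 175, 162 and 139 CPM in TTP-A, with WT-A below every other library. Between TTP-A and TTP-S 7 were called lower and 1, Eci3, higher, against 1.35% and 1.55% of all genes; the 14 libraries gave 14 lower and 1 higher (3.13% and 3.2%). Pdk4, which spares glucose when fat is burned and responds to PPARs and glucocorticoids, led them. It was at 28.8, 44.1, 35.2 and 36.5 CPM in TTP-S and 15, 15.3, 12.2 and 13.8 CPM in TTP-A, wholly apart (log2 -1.36, SE 0.16, adjusted p = 0.000435). It was at 20.5, 23.9, 21.5 and 27.9 CPM across WT-S and 21.2, 17.7, 14.7 and 12.2 CPM in WT-A, where it was called as well (-0.51, adjusted p = 0.0357; 14 libraries -0.27, adjusted p = 0.289). The other 6 lower in TTP-A were Elovl6 (-0.52), Pex11a (-0.51), Fabp4 (-0.68), Plin4 (-0.60), Acad11 (-0.28) and Acaca (-0.49). Elovl6 and Acaca serve synthesis and chain elongation, and Fabp4 and Plin4 are also on the list of fat cell markers. Between TTP-A and WT-A 7 were higher (Cd36, Mut, Acadsb, Scp2, Oxct1, Lpl and Hibch, from 0.24 to 0.74), against 2.87% of all genes. None of these 7 was called in the 14 libraries, where their log2 differences ran from 0.17 (Scp2) to 0.56 (Cd36). There 2 others of the list were called higher, against 1.27% of all genes. Between TTP-S and WT-S and for the interaction 0 of the 68 were called by edgeR, and in the 14 libraries 2 and 1.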

How the data were processed

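The deposited data are raw read counts, as whole numbers, for each gene symbol in each library. Per the submitters' processing notes the tools were STAR 2.7.0f, featureCounts, Subread 1.6.4 and DESeq2 with the mm10 build; the annotation, strandedness and filters are not given in the sources used here. Without strand, overlapping genes cannot be told apart.

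The unchanged counts were fitted in R 4.3.3 by edgeR 4.0.16 (quasi-likelihood, TMM scaling, filterByExpr), with a mean for each of 4 groups over 16 libraries. Each of 5 contrasts had its p-values corrected after Benjamini and Hochberg across 15385 genes, and the threshold was 0.05. SE is the size of the log2 difference over the root of F. CPM are scaled by TMM. GC content came from the longest GENCODE transcript (98.9% of tested genes). Chi-square over its degrees of freedom was 4.9 to 94.7 for the 24 library pairs within groups, and every library counted as a replicate. The fit was tested on simulated data.

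The members and lists were chosen with earlier results of these data known. Values in every library are given for Slc27a2, Cpt1a, Ppara, Ppargc1a, Angptl4 and up to 16 members called in either fit, by smallest adjusted p; pathway genes beyond the members are named when called, at most 8 per contrast. One result that this rule names for TTP-A against WT-A is not reported here. Single values of some further members were chosen after they were seen. Alternatives were DESeq2 1.42.0 size factors and Wald test, limma 3.58.1 voom with sample weights, 2 other filters, 14 libraries, GC offsets (loess span 0.5), only the groups compared, a replicate block, and each library left out. Counts of groups that do not overlap were recomputed under alternatives chosen after seeing the data.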

Additional observations from a re-analysis of the deposited data

Results flagged for a closer look

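Among 68 groups of 4 libraries (17 members in 4 groups), 3 held a library far from the others of its group; chance alone flags about 1 in 20 groups. Decr1 was at 52.4 CPM in WT-S 1 and 57.7 to 58.2 CPM in the other WT-S libraries, and this library was also low in most other members. Decr1 was at 59.8 CPM in TTP-A 2 and 52.3 to 53.4 CPM in the other TTP-A libraries. Ppargc1a was at 92.3 CPM in TTP-A 3 and 52.0 to 53.5 CPM in the other TTP-A libraries.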

How the results depend on the processing

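Counts of called members moved with the test more than the log2 differences did. Shares of all genes called are in parentheses. The counts against WT-A and for the interaction include Slc27a2, whose calls there are no test, and are also given without it. Between WT-A and WT-S the count of 11 (18.8%) became 18 by voom (19.5%) and 3 in a fit of only the groups compared (3.98%), and it ran from 5 to 15 with 1 library of these groups left out (without Slc27a2 10, 17, 2, and 4 to 14). The median log2 difference of the members there was -0.198 by voom and ran from -0.159 to -0.0852 with 1 library left out. Between TTP-A and TTP-S the count of 3 (2.9%) became 7 by DESeq2 (5.61%), 26 by voom (15.2%), 9 in the 14 libraries (6.33%), 8 with GC offsets (4.95%) and 12 when these groups alone were fitted (7.36%), and ran from 0 to 7 with 1 library of these groups left out. Between TTP-S and WT-S the count of 0 became 1, Angptl4, by DESeq2 (0.65%), by voom (1.14%), in the 14 libraries (0.422%) and when only this pair of groups was fitted (0.273%), and stayed 0 without each library of these groups. Between TTP-A and WT-A the count of 3 (5.17%) became 5 by DESeq2 (10.6%), 6 by voom (5.17%) and 0 when these groups alone were fitted (0.0065%), and ran from 1 to 8 (without Slc27a2 2, 4, 5, 0, and 0 to 7). For the interaction the count of 0 became 2 by DESeq2 (1.7%) and 1 by voom (1.11%), and ran from 0 to 1 (without Slc27a2 0, 1, 0, and 0 to 1). The cause of these differences was not tested. The log2 difference of Etfb in WT mice (-0.0255) turned to 0.04 without WT-A 1 and 0.0486 without WT-A 2 (lowest -0.159), and that of Ppargc1a in TTPΔARE mice (0.17) to -0.0778 without TTP-A 3 (highest 0.25). With the replicate number as a block the counts were 10, 2, 0, 2 and 0 in the 5 contrasts (18.5%, 2.78%, 0.0325%, 4.06% and 0.026%). Acadl and Acsl3 in WT mice, Acsl1 (TTP-A minus TTP-S) and Ppargc1a (TTP-A minus WT-A) were then not called, and Acox2 in WT mice was (adjusted p = 0.0249). Libraries of the same number did not deviate together (24 pairs, r from -0.51 to 0.33, 7 over 0.1; 2 of 16 libraries correlated best with their own number), so the number was not taken as a pairing. Of 680 values recomputed for 40 results, 558 kept their direction and side of the threshold, 65 lost a call, 51 gained one, 3 turned direction, and 3 values of Slc27a2, which carry no test, moved by more than 1 SD (WT-A minus WT-S by voom and, at -2.46, in the 14 libraries; TTP-A minus WT-A, at 2.26, there). The 558 include values that had no call and stayed without one, and Acsl3 and Acadl are not among the 40 results. Depth limits Angptl4, Acot1 and Acaa1b, whose counts were as low as 11, 4 and 13.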
